A study of Mus musculus with 6 samples.

Results

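Genes of lipid droplet coats and lipases were followed by RNA-seq in AY-mICC, a mouse line whose study concerns intrahepatic cholangiocarcinoma, cancer of bile ducts within the liver. The set holds 10 genes of 55414 identifiers in the deposited table and was chosen by name: the perilipins Plin2, Plin3, Plin4 and Plin5, the lipase Pnpla2 with its coactivator Abhd5, the droplet fusion factor Cidec, the lipase inhibitor Hilpda, and the acyltransferases Dgat1 and Dgat2. All 10 names matched 1 identifier each. The control group, shCon, had 3 libraries, and the group with a knockdown of Copa, shCopa, had 3. Both groups were the same line, grown in serum-supplemented DMEM without further treatment. The labels do not say what shCon targets, how many hairpins or clones were used, or whether each replicate was its own culture. The p-values therefore reflect only how far these libraries differ, and that spread may be technical. Values of a group are given in the order of its replicates, 1 to 3, and shCon libraries are called controls.

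A lipid droplet is a core of triglyceride and sterol ester within a single layer of phospholipid. Perilipins coat that layer and regulate access of lipases, Dgat1 and Dgat2 make the triglyceride that fills the core, and Pnpla2 begins its breakdown. Copa encodes a subunit of COPI, a vesicle coat recruited by ARF1 and its activator GBF1, and this machinery is known to deliver some droplet proteins, Pnpla2 and Plin2 among them, to the droplet surface. RNA was measured here, and neither droplets, lipid nor protein.

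Promoter windows of the 3 perilipin genes whose RNA fell in shCopa are shown first, with that of Hilpda, since Plin2 and Hilpda are known to respond to lipid-activated nuclear receptors and to hypoxia-inducible factor. Each window holds 250 bases before and 50 bases after a transcription start, 5′ to 3′ on the gene's strand, from RefSeq on GRCm38.p6, whereas the counts were made on GRCm39. Capitals mark AGGTCA, the half-site of nuclear receptors such as the PPARs, and ACGTG or GCGTG, the core of hypoxia response elements, on either strand.
Plin2, chr4:86670010-86670309, minus strand: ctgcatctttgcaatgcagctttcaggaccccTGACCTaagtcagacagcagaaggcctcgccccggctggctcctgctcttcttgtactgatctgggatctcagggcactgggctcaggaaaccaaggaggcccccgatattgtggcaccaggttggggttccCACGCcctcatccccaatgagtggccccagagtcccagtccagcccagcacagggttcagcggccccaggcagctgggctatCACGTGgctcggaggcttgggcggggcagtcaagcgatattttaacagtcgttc
Plin3, chr17:56290462-56290761, minus strand: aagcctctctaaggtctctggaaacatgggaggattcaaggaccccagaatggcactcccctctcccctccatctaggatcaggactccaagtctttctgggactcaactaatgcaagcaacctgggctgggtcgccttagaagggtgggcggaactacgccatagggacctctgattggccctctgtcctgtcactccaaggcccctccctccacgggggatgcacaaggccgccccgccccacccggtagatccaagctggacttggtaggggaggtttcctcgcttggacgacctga
Plin4, chr17:56109733-56110032, minus strand: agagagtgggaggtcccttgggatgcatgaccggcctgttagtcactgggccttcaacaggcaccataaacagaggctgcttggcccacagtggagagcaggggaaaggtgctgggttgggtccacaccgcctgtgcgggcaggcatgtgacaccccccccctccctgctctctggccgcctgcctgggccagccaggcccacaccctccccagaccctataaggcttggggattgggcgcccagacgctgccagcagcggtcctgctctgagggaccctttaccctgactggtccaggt
Hilpda, chr6:29272376-29272675, plus strand: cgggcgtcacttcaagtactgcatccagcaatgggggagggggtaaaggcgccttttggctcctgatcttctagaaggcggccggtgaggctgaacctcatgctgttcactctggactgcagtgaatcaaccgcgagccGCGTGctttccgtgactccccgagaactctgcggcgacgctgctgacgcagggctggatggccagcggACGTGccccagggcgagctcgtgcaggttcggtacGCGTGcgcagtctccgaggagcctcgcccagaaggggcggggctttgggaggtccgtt

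Positions are counted from the start base, which is 1, and the base before it is -1. In Plin2 the half-site began at -218, and hypoxia cores began at -86, -4 and -3. The last pair overlap within CACGTG, an E-box that reads the same on both strands. The second Hilpda start held 3 hypoxia cores, at -111, -43 and -8. Its other start, whose window overlaps this one, held 1, which is the same site as that at -111. The Plin3 and Plin4 windows held neither motif. Windows were found for 8 of the 10 members, 11 windows in all, since Plin5, Cidec and Hilpda had 2 each. Dgat1 and Dgat2 had no window, so their motifs were not examined. The half-site was in 4 of the 11 windows (genes Plin2, Plin5 and Abhd5), a hypoxia core in 8 (Plin2, Plin5, Abhd5, Cidec and Hilpda) and the E-box in 1 (Plin2). The windows of Plin5 overlap and share a core too, so the windows of Plin5 and Hilpda are not independent in this count. Among 32851 promoter windows of the same length, 16.3% held the half-site, 43.8% a hypoxia core and 7.15% the E-box. A match describes these letters and not binding, and no match says only that they are not in this window.

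Library totals ran from 19634876 to 24546142 rounded counts. In 1 library, 3 counts, used as the limit for a gene with none, corresponded to 0.122 to 0.153 CPM (counts scaled to a common library size), for counting error only. These limits, and those given for Plin1 below, use library totals without the scaling factors applied to the CPM of genes. shCon 1 stood apart from its group: across tested genes its log2 CPM correlated at r = 0.9734 and 0.9719 with shCon 2 and shCon 3, which correlated at 0.9898 with each other. Copa stood at 419, 516 and 526 CPM in the controls and at 186, 181 and 187 CPM in the knockdown. Krt19 and Sox9, markers of bile duct cells, were abundant in both groups (562.6 and 165 CPM in shCon), Epcam was under 1 CPM, and of 5 tested bile duct markers 2 fell, Krt7 and Spp1. Of 6 adipocyte markers none had enough counts to test, Plin1 and Cfd had no count in any library, and their summed level was 0 to 0.0928 CPM in the controls and 0.0505 to 0.486 CPM in the knockdown. Hepatocyte markers summed to 10.1 to 14.9 CPM in the controls and 26.1 to 26.7 CPM in the knockdown, with Apoc3 at 0 in all 6 libraries; of 3 tested, Alb rose. Of 5 tested macrophage markers, 2 rose (Ptprc and Lyz2) and 2 fell (Csf1r and Cd14), and the 6 listed summed to 277 to 286 and 157 to 170 CPM, with Adgre1 at no more than 1 count in any library. Fibroblast markers summed to 184 to 223 and 168 to 182 CPM, with a fall of Pdgfrb among 3 tested. Nearly all of that sum was Dcn (means of 202 and 170 CPM). Col1a2 and Pdgfra had at most 9 counts in any library, and Lum at most 1. Endothelial markers summed to 0.411 to 0.601 and 2.52 to 4.55 CPM, with a rise of Kdr and Vwf, the 2 tested. The part of any other cell type in the results below was not tested, and in bulk RNA fewer cells of a type and less RNA per cell cannot be told apart.

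The 3 tested perilipins, Plin2, Plin3 and Plin4, and both enzymes of the last step of triglyceride synthesis, Dgat1 and Dgat2, were lower in shCopa, and the lipase pair did not pass the test in either direction. Of the 10 members, 8 had enough counts to test. Of these, 5 fell (Plin2, Plin3, Plin4, Dgat1 and Dgat2), 0 rose and 3 did not pass (Pnpla2, Abhd5 and Hilpda), by edgeR's quasi-likelihood test with Benjamini-Hochberg adjustment over all genes at 0.05. For comparison, 36.5% of the 14807 tested genes changed in either direction, 18.4% fell and 18.2% rose. The same 5 members were the ones whose libraries did not overlap between groups, as in 54.1% of tested genes. The falls of Plin2 and Plin4 were at least 2-fold, as in 6.31% of tested genes. The median log2 fold change of the 8 tested members was -0.48, and that of all tested genes -0.01. The number that fell was 4 without shCon 2 or shCon 3, 3 without shCopa 1, and 2 without shCopa 2 or shCopa 3. Of all tested genes, 15.4% and 16.6% fell without shCon 2 and shCon 3. The share was 11.8%, 11.6% and 11.6% without shCopa 1, shCopa 2 and shCopa 3, so calls were fewer over all genes as well.

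**Figure D1:**
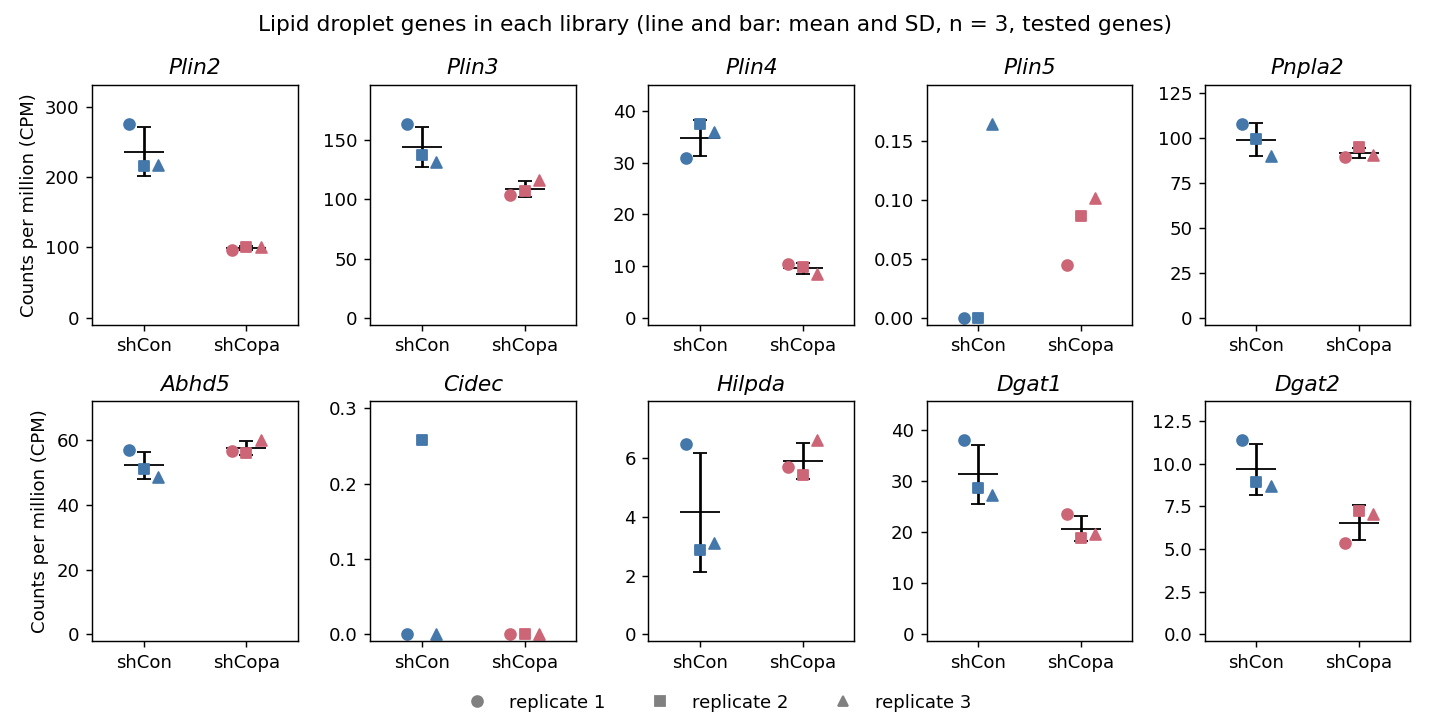
CPM (vertical axes, 1 scale per gene) of the 10 genes in the 3 shCon (blue) and 3 shCopa (red) libraries, with marker shapes for replicates and mean and SD lines for tested genes. Plin2, Plin3, Plin4, Dgat1 and Dgat2 do not overlap between groups, and Hilpda in shCon 1 lies at 6.50 CPM, among the shCopa libraries.

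Plin2 (ENSMUSG00000028494), also called adipophilin, is the coat protein found on droplets of most cell types. It stood at 276, 216 and 217 CPM in the controls and at 96.5, 101 and 99.8 CPM in the knockdown. All shCopa libraries lay far below the lowest control and close to each other. The mean fell from 236 ± 34.2 to 99.0 ± 2.24 CPM (SD, n = 3 each), to 41.9% of control. The log2 fold change was -1.25 ± 0.12 (SE; edgeR adjusted p = 0.000296), and 4.31% of tested genes had a lower one.

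Plin4 (ENSMUSG00000002831), known in adipocytes as a coat of new small droplets, had the deepest fall of the set. It stood at 30.8, 37.5 and 35.9 CPM in the controls and at 10.4, 9.76 and 8.44 CPM in the knockdown. In this gene shCon 1 was the lowest control, whereas it was the highest for Plin2 and Plin3, and every shCopa library was below it. The log2 fold change was -1.86 ± 0.13 (edgeR adjusted p = 9.87e-05), leaving 27.5% of control, and 1.48% of tested genes had a lower one.

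Plin3 (ENSMUSG00000024197), also called TIP47, is a perilipin that resides in the cytosol and moves onto forming droplets. It stood at 164, 137 and 132 CPM in the controls and at 103, 107 and 116 CPM in the knockdown. The groups did not overlap, but the gap between shCon 3 and shCopa 3 was smaller than the spread among the controls. The mean fell to 75.5% of control (log2 fold change -0.41 ± 0.11; edgeR adjusted p = 0.0247). Leaving out any 1 knockdown library ended the call (adjusted p = 0.0577 to 0.104).

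Plin5 (ENSMUSG00000011305), a perilipin of oxidative tissues that links droplets to mitochondria, was at 0, 0 and 4 counts in the controls and 1, 2 and 2 counts in the knockdown. With 4 and 5 counts per group, a difference was not detectable at this depth. Plin1, the perilipin of adipocytes and no member of the set, had no count in the 6 libraries, which allows up to 0.0426 CPM in the controls and 0.0466 CPM in the knockdown.

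The 3 tested perilipins fell by different amounts, and a ratio taken within each library does not depend on library scaling. The count ratio of Plin2 to Plin3 was 1.68, 1.58 and 1.64 in shCon 1 to 3 and 0.933, 0.945 and 0.859 in shCopa 1 to 3. Plin2 thus had more counts than Plin3 in every control and fewer in every knockdown library. The log2 ratio was 0.708 ± 0.047 in shCon and -0.134 ± 0.075 in shCopa (SD, n = 3), a difference of -0.842. The ratio of Plin4 to Plin3 was 0.188, 0.274 and 0.273 in shCon and 0.101, 0.0916 and 0.0728 in shCopa, a log2 difference of -1.46. Both ratios separated the groups, with an exact two-sided permutation p = 0.1, the smallest that 3 against 3 libraries can give, and 0.167 after Benjamini-Hochberg adjustment over 5 ratios.

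Levels of different genes were compared per transcript length, as TPM, a per-length share of all transcripts, with the longest GENCODE M21 transcript of each gene. Summed over the 4 perilipins, this level was 461, 438 and 438 in shCon 1 to 3 and 232, 235 and 238 in shCopa 1 to 3. Plin2 made up 73.2% ± 1.11 of perilipin transcripts in shCon and 62.5% ± 1.04 in shCopa (SD, n = 3). Plin3 made up 23.2% ± 0.442 and 35.5% ± 1.26, and Plin4 3.60% ± 0.760 and 1.98% ± 0.262. With the median transcript length in place of the longest, the shares in shCon and shCopa were 81.7% and 72.4% for Plin2, 16.8% and 26.7% for Plin3, and 1.51% and 0.857% for Plin4. Plin2 was the most abundant perilipin in each library with either length.

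**Figure D2:**
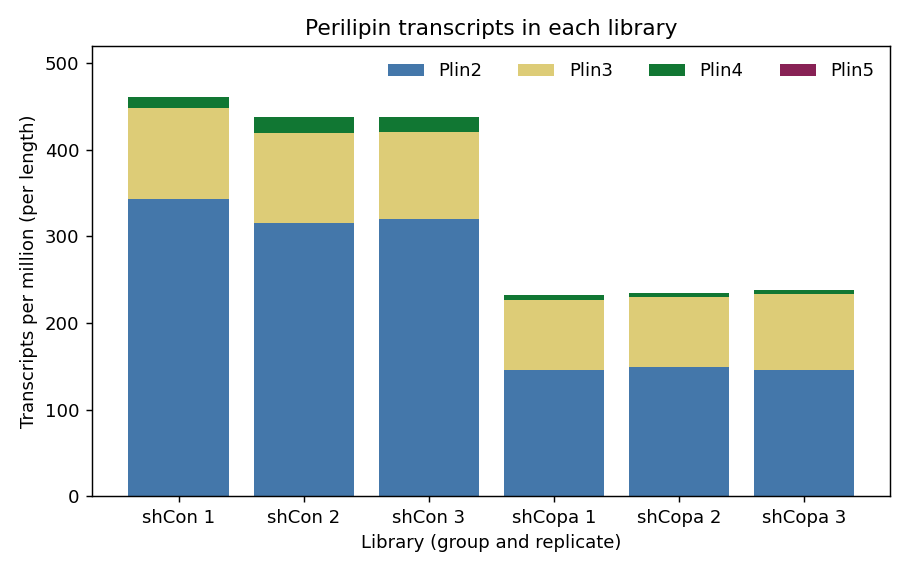
Levels in TPM, scaled by transcript length (vertical axis), of the 4 perilipins stacked for each of the 6 libraries (horizontal axis). The stacks reach 438 to 461 in shCon and 232 to 238 in shCopa, and Plin2 is the tallest segment in each.

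Ranked by the mean per-length level in shCon, Plin2 (326) came before Plin3 (103), Pnpla2 (98.6), Abhd5 (43.3), Dgat1 (43.2), Plin4 (15.99), Dgat2 (11.1) and Hilpda (10.8). Plin3 and Pnpla2 overlapped over the 3 libraries, as did Abhd5 with Dgat1, and Hilpda with Plin4 and with Dgat2. In shCopa the order was Plin2 (147), Pnpla2 (97.5), Plin3 (83.5), Abhd5 (51.0), Dgat1 (30.7), Hilpda (16.9), Dgat2 (8.08) and Plin4 (4.64), and no neighbours overlapped. The places of the middle and low genes depend on the transcript length used.

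Neither gene of the lipase pair passed the test. Pnpla2 (ENSMUSG00000025509) encodes ATGL, which cuts the first fatty acid from a triglyceride. It stood at 108, 99.0 and 89.6 CPM in the controls and at 89.1, 94.8 and 90.4 CPM in the knockdown, and the groups overlapped. The log2 fold change was -0.11 ± 0.10, with a 95% interval from -0.34 to 0.12, or 79.2% to 108% of control (edgeR adjusted p = 0.408).

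Abhd5 (ENSMUSG00000032540), also called CGI-58, binds ATGL and activates it. It stood at 56.9, 51.1 and 48.6 CPM in the controls and at 56.7, 55.9 and 59.9 CPM in the knockdown. In CPM, shCon 1 lay within the knockdown libraries and the other controls below them. Per transcript length, Abhd5 stood at 42.32, 44.75 and 42.84 in the controls and at 51.26, 49.36 and 52.33 in the knockdown. The overlap thus depends on the scaling. The log2 fold change was 0.14 ± 0.09, with a 95% interval from -0.08 to 0.36 (edgeR adjusted p = 0.280), and without shCon 1 it was 0.20 (adjusted p = 0.0159). Abhd5 was the only member with deposited counts that were not whole, for 5 of its 6 libraries, and how those fractions arose was not tested.

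Pnpla2 had more counts than Abhd5 in each library, by a ratio of 1.89, 1.94 and 1.84 in shCon and 1.57, 1.69 and 1.51 in shCopa. The groups did not overlap in this ratio, with a log2 difference of -0.251 for shCopa minus shCon (exact permutation p = 0.1, adjusted over 5 ratios 0.167).

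Hilpda (ENSMUSG00000043421), a small protein induced by hypoxia that inhibits ATGL, stood at 6.50, 2.87 and 3.12 CPM in the controls and at 5.70, 5.44 and 6.62 CPM in the knockdown. The 3 knockdown libraries were close together, and shCon 1 lay among them while shCon 2 and shCon 3 lay well below. The log2 fold change was 0.51 ± 0.32, with a 95% interval from -0.23 to 1.26 (edgeR adjusted p = 0.248). Without shCon 1 it was 0.98 (edgeR adjusted p = 0.000331), so the absence of a call with all libraries depends on shCon 1. The log2 ratio of Hilpda to Pnpla2 differed by 0.711, with overlapping groups (exact permutation p = 0.2, adjusted over 5 ratios 0.250).

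Cidec (ENSMUSG00000030278), which drives lipid transfer between touching droplets, had 6 counts in shCon 2 and none in any other library. Nothing could be compared at this depth. Its relatives Cidea and Cideb, no members of the set, were also low, at 1, 1 and 0 and at 4, 1 and 1 counts in the controls, and at 0, 3 and 0 and at 7, 4 and 7 counts in the knockdown.

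Both acyltransferases of the last step of triglyceride synthesis fell. Dgat1 (ENSMUSG00000022555), an ER enzyme that also re-esterifies fatty acids released by lipolysis, stood at 38.0, 28.7 and 27.3 CPM in the controls and at 23.5, 19.0 and 19.7 CPM in the knockdown. shCon 1 was the highest library, and all knockdown libraries lay below all controls. Its log2 fold change was -0.60 ± 0.16, to 66.2% of control (edgeR adjusted p = 0.0224), and the call was lost without shCopa 2 (0.0937) or shCopa 3 (0.0910).

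Dgat2 (ENSMUSG00000030747), unrelated in sequence and known to act on newly made fatty acids at the ER and on droplets, stood at 11.4, 8.92 and 8.70 CPM in the controls and at 5.35, 7.25 and 7.02 CPM in the knockdown. The groups did not overlap, and shCopa 1 was the lowest library. Its log2 fold change was -0.56 ± 0.18, to 67.7% of control (edgeR adjusted p = 0.0444). This was the weakest of the 5 calls: it was lost in each of the 5 fits that left out a library other than shCon 1 (adjusted p = 0.0503 to 0.144). The count ratio of Dgat1 to Dgat2 was 3.34, 3.21 and 3.13 in shCon and 4.37, 2.61 and 2.80 in shCopa. The knockdown libraries lay on both sides of the controls (log2 difference -0.02, exact permutation p = 1.0).

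**Figure D3:**
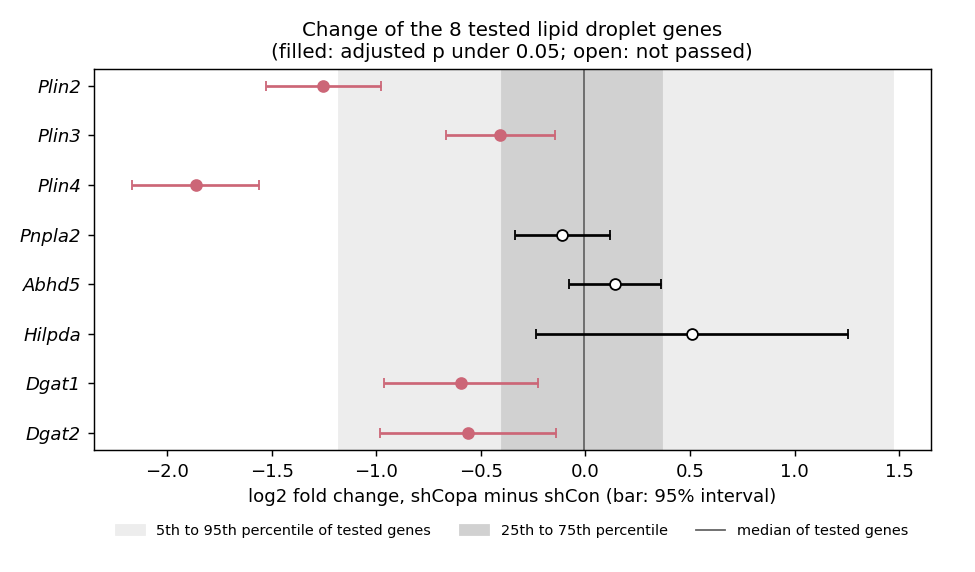
Log2 fold changes of the 8 tested genes (horizontal axis, shCopa minus shCon) with 95% intervals, filled where the adjusted p is under 0.05, over bands of all tested genes. Plin4 (-1.86) and Plin2 (-1.25) lie below the 5th percentile of tested genes, -1.18, and Pnpla2 and Abhd5 lie within the middle band.

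**Figure D4:**
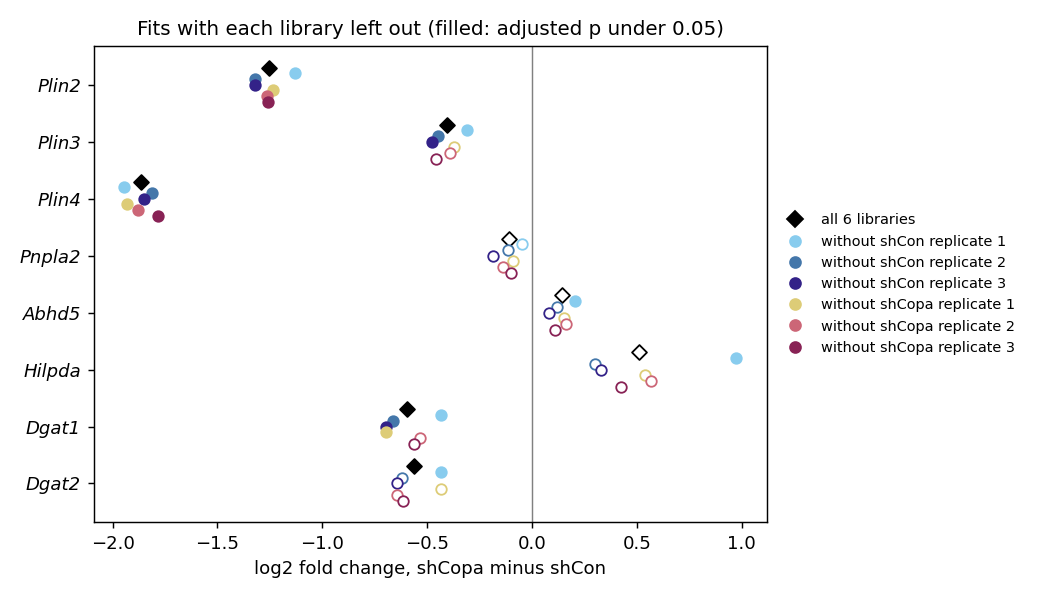
Log2 fold changes (horizontal axis, shCopa minus shCon) of the 8 tested genes with all 6 libraries (diamonds) and with each library left out (circles), filled where the adjusted p is under 0.05. Plin2 and Plin4 are filled in each fit, and Hilpda and Abhd5 are filled in the fit without shCon 1 alone.

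Plin4, Plin5 and Plin3 lie in the same stretch of chromosome 17, with Plin4 and Plin5 next to each other in RefSeq on GRCm38.p6. Between Plin5 and Plin3 that annotation lists 9 other genes, of which 7 were tested: 2 fell, 1 rose and 4 did not pass. Strand use in counting is not given in the sources used here, so reads from overlapping genes may have been divided in ways the counts do not show.

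The libraries' pattern of Plin2 was closest to those of Ncmap, Sept4, Cacnb3, Psmd7 and Atp1b1 among 9588 other genes of at least 10 CPM. Likeness was the root mean square distance of log2 CPM over the 6 libraries after each gene was centred on its mean, 0.0173 for Ncmap and 0.0328 to 0.0462 for the other four. A distance of up to 0.1 was found for 52 genes.

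Genes around the members were counted in 8 lists, to be read beside the 36.5% of all tested genes that changed. The share that changed was below this in earlier triglyceride synthesis, other lipolysis, other coat and assembly genes and sterol esterification, so those counts are no result about the lists. In earlier triglyceride synthesis, 3 of 11 tested genes rose, 0 fell and 8 did not pass (median log2 fold change 0.04). Gpat3, which adds the first acyl chain to glycerol-3-phosphate, rose 1.61-fold, from 13.2 ± 0.610 to 21.2 ± 3.36 CPM (edgeR adjusted p = 0.00742). Lpin2, which makes the diacylglycerol that Dgat1 and Dgat2 use, rose 1.49-fold (adjusted p = 0.0103), a call lost without shCopa 3 (0.0516). Mogat2, which makes diacylglycerol from monoacylglycerol, rose 3.42-fold from a low level, 0.408 ± 0.0900 to 1.40 ± 0.0506 CPM (adjusted p = 0.00351). Gpam, the mitochondrial counterpart of Gpat3, was at 127 ± 17.7 and 132 ± 6.77 CPM and did not pass. Without shCon 1, 4 of these genes rose and 2 fell, and without shCopa 3, 2 rose. Of all tested genes, 28.3% rose and 27% fell without shCon 1, and 11.7% rose without shCopa 3.

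The list of other lipolysis genes had 7 tested, with 1 that rose, 1 that fell and 5 that did not pass (median -0.21). Mgll, which releases the last fatty acid from monoacylglycerol, stood at 2.37, 2.32 and 2.05 CPM in the controls and at 0.531, 0.518 and 0.202 CPM in the knockdown. It fell to 19.0% of control (edgeR adjusted p = 0.00201). Pnpla7, a lysophospholipase related to ATGL, rose 2.45-fold, from 16.3 ± 0.575 to 39.8 ± 1.91 CPM (adjusted p = 0.000115). Lipe, the hormone-sensitive lipase, was at 6.44 ± 0.711 and 4.94 ± 0.534 CPM and did not pass (adjusted p = 0.107). G0s2, another inhibitor of ATGL, had no more than 3 counts in any library. Without shCon 1, 4 of these genes fell, in a fit where 27% of all tested genes fell.

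Of 9 tested genes for other coat proteins and droplet assembly, 0 rose, 2 fell and 7 did not pass (median -0.10). Acsl3, an acyl-CoA synthetase of nascent droplets, fell to 59.0% of control (edgeR adjusted p = 0.00457) and Fitm2, an ER protein needed for droplet budding, to 75.4% (adjusted p = 0.0171). The call of Fitm2 was lost without any 1 shCopa library (adjusted p = 0.0539 to 0.0781). Bscl2, which encodes seipin at the ER-droplet junction, stood at 40.1, 28.6 and 24.5 CPM in the controls and 41.3, 43.3 and 43.5 CPM in the knockdown. It did not pass (log2 fold change 0.46 ± 0.18, adjusted p = 0.0783), and without shCon 1 it was 0.68 (adjusted p = 1.23e-06).

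Sterol esters are the other neutral lipid of droplets. Soat1, which makes cholesteryl ester in the ER, stood at 72.4, 62.8 and 64.8 CPM in the controls and at 14.4, 12.6 and 14.6 CPM in the knockdown. It fell to 20.8% of control (log2 fold change -2.26 ± 0.11, edgeR adjusted p = 3.44e-05), below any tested member. The other 3 tested genes of this list did not pass (list median 0.03).

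Among 15 tested PPAR targets and genes of fatty acid oxidation, 7 fell, 1 rose and 7 did not pass (median -0.29). Cpt1a, which admits fatty acids to mitochondria, fell from 173 ± 21.6 to 109 ± 6.16 CPM (edgeR adjusted p = 0.00385). Acadm, a mitochondrial acyl-CoA dehydrogenase, fell to 53.6% (adjusted p = 0.00121) and Ucp2, a mitochondrial carrier, to 57.1% (adjusted p = 0.000931). The gene that rose was Angptl4, a secreted inhibitor of lipoprotein lipase and a PPAR target, from 16.9, 11.3 and 13.4 CPM in the controls to 32.5, 38.0 and 32.9 CPM in the knockdown (adjusted p = 0.000917). Plin2, itself a known PPAR target, moved the other way, and Pdk4, another, was at 12.2 ± 2.81 and 15.4 ± 0.447 CPM and did not pass.

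Of 12 tested transcription regulators of lipid genes, 7 fell, 0 rose and 5 did not pass (median -0.58). Srebf1, which drives fatty acid synthesis genes, fell to 66.4% of control (edgeR adjusted p = 0.00493), Rxra, the partner of PPARs and LXRs, to 72.2% (adjusted p = 0.00716), and the LXR genes Nr1h2 and Nr1h3 to 66.9% and 60.8% (adjusted p = 0.0102 and 0.0238). Ppard fell to 77.4% (adjusted p = 0.0251), Pparg was at 2.33 ± 0.813 and 3.24 ± 0.474 CPM and did not pass, and Ppara had at most 4 counts in a library. Without shCon 1, Pparg rose (log2 fold change 0.79, adjusted p = 0.0136). The calls of Nr1h3 (adjusted p = 0.0557 to 0.0908) and Ppard (0.0645 to 0.105) were lost without shCon 2 or any 1 shCopa library, and that of Nr1h2 without shCopa 3 (0.0542). The number that fell was 3 without shCopa 1 or shCopa 2 and 2 without shCopa 3. Of all tested genes, 11.8%, 11.6% and 11.6% fell in these fits, below the 18.4% with all libraries.

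Of 8 tested hypoxia targets beside Hilpda, 5 fell, 1 rose and 2 did not pass (median -0.54). Egln3, an oxygen-sensing prolyl hydroxylase, fell to 24.0% of control (edgeR adjusted p = 0.000204), Pdk1, a kinase that inhibits pyruvate dehydrogenase, to 32.8% (adjusted p = 5.22e-05), Ankrd37 to 27.0% (adjusted p = 0.00678) and the growth factor gene Vegfa to 68.3% (adjusted p = 0.0108). Bnip3, a mitophagy receptor, fell to 69.2% (adjusted p = 0.0189) and Ndrg1 rose 1.26-fold (adjusted p = 0.0172), both named after their values were seen. Hif1a, the gene of the hypoxia-inducible factor itself, fell to 70.4% (adjusted p = 0.00942). Hilpda, from the same response, did not fall in any fit with a library left out (log2 fold change 0.30 to 0.98). The call of Vegfa was lost without shCopa 2 (edgeR adjusted p = 0.0508) or shCopa 3 (0.0587). Without shCopa 1 or shCopa 2, 4 of these targets fell, beside 11.8% and 11.6% of all tested genes. Without shCopa 3, 3 of them fell, beside 11.6%. The call of Ndrg1 was lost without shCon 3 or any 1 shCopa library, where 0 of these targets rose. In those fits 11.7% to 15.5% of all tested genes rose.

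Of the 9 ARF1-COPI delivery genes, Copa, the knockdown target, fell to 37.9% of control by design, 3 rose and 5 did not pass. Apart from Copa, the share that changed was near the 36.5% of all tested genes, so the count is no result about the list. Arf4, an ARF GTPase, rose 1.41-fold (edgeR adjusted p = 0.00801), Copb1 1.39-fold (adjusted p = 0.00502) and Arcn1 1.30-fold (adjusted p = 0.0294). The call of Arcn1 was lost without shCon 2 or any 1 shCopa library.

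**Figure D5:**
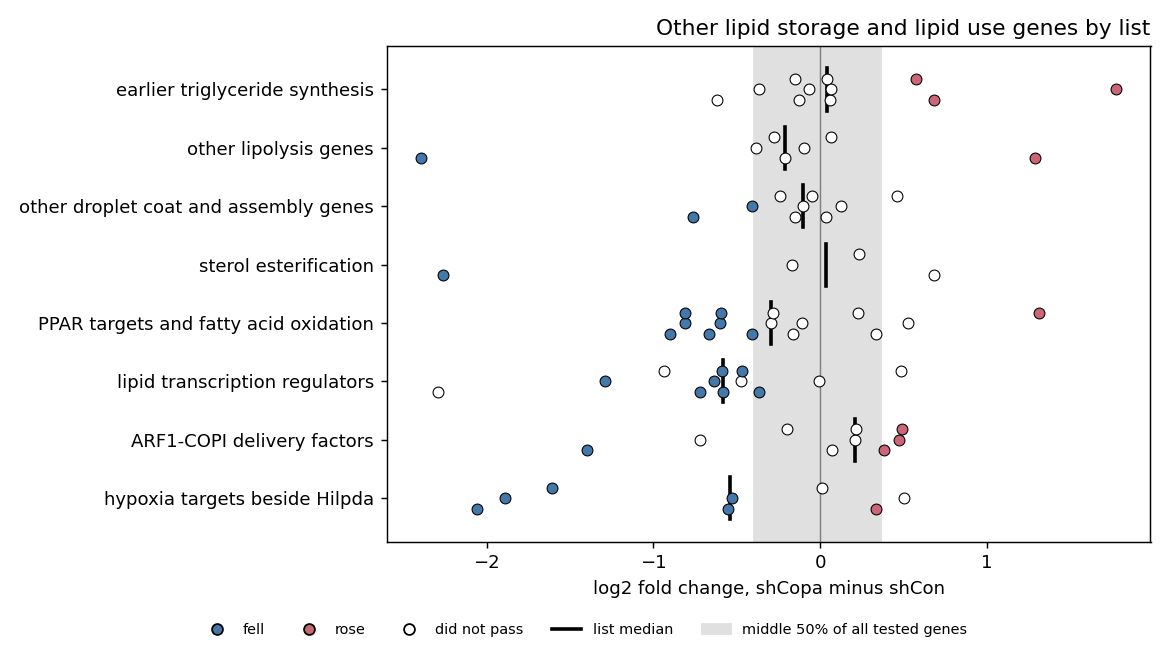
Log2 fold changes (horizontal axis, shCopa minus shCon) of the tested genes in 8 lists around the members, coloured where they rose or fell, with list medians as bars and the middle 50% of all tested genes as a grey band. The leftmost called points are Mgll (-2.39) and Soat1 (-2.26), and the regulators lie mostly left of 0, with a median of -0.58.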

How the data were processed

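Estimated counts per Ensembl gene were deposited by the authors for 3 shCon and 3 shCopa libraries, in 1 table. The build was GRCm39 and the tools named were DESeq2, featureCounts, HTSeq, HISAT2 2.0.5 and Trimmomatic, per the submitters' processing notes. The sources used here do not say which program counted, with which annotation or strand setting. Counts were rounded. Symbols from GENCODE M21 matched 52081 of 55414 identifiers; the rest held 0.201% to 0.464% of counts. Members, lists and tests were chosen with earlier results of these data known.

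edgeR 4.0.16 in R 4.3.3 was fitted to the whole table with TMM scaling, filterByExpr and robust quasi-likelihood F tests, with Benjamini-Hochberg adjustment over 14807 genes; SEs come from the fold change and its F statistic. "Rose" and "fell" mean an adjusted p under 0.05. CPM use TMM-scaled library sizes, except the limits from 3 counts, which use unscaled totals. The fit was run on simulated counts with a smaller share of changed genes and no outlying library. That run therefore does not cover data in which 1 library stands apart, as shCon 1 does here. Ratios of 5 pairs of members used a prior count of 0.5 and exact permutation. No pair of replicates agreed within sampling noise (chi-square per degree of freedom 4.35 to 87.3). Named were all members, Copa, up to 4 genes per list with the smallest adjusted p, some genes set by name, and the 5 genes most like Plin2. A gene that this rule would name is not reported here. Alternatives were other scalings and filters, DESeq2 1.42.0, limma-voom (limma 3.58.1), a replicate block, stricter thresholds, each library left out and, chosen after seeing the data, offsets for transcript length and GC content. Figures used matplotlib 3.10.9 in Python 3.11.15.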

Additional observations from a re-analysis of the deposited data

How the results depend on the processing

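Plin2 and Plin4 kept their direction and call under each alternative run. Over fits that each left out 1 library, the log2 fold change of Plin2 ranged from -1.32 to -1.13, Plin4 -1.94 to -1.78, Plin3 -0.48 to -0.31, Dgat1 -0.70 to -0.44, Dgat2 -0.64 to -0.43, Pnpla2 -0.19 to -0.05, Abhd5 0.080 to 0.20 and Hilpda 0.30 to 0.98. In these fits 2 to 5 members fell and 0 to 2 rose, the 2 being Abhd5 and Hilpda without shCon 1. Without shCon 1, 28.3% of all tested genes rose and 27% fell, so these counts are no result about the members. At an adjusted p under 0.01, or with at least 2-fold required, Plin3 (-0.41), Dgat1 (-0.60) and Dgat2 (-0.56) were no longer called. With at least 2-fold required, 6.31% of all tested genes fell, and the share at 0.01 was not counted. Deviations of same-numbered libraries correlated at r = -0.162, -0.058 and -0.114, against -0.113 to 0.225 for pairs of different number. These few values cannot settle whether such libraries shared a culture or day, which the labels do not give. With the replicate block 3 members fell, beside 13.1% of all tested genes, and 3903 genes passed in place of 5411. Plin3 (-0.40, edgeR adjusted p = 0.0811) and Dgat2 (-0.56, adjusted p = 0.119) no longer passed in that fit. With length and GC offsets the value of Pnpla2 turned to 0.038 (adjusted p = 0.651). The cause of these changes was not tested. Without 1 library at a time the log2 ratio differences ranged from -0.868 to -0.800 for Plin2/Plin3, -1.64 to -1.33 for Plin4/Plin3, -0.297 to -0.213 for Pnpla2/Abhd5, 0.492 to 1.02 for Hilpda/Pnpla2 and -0.255 to 0.118 for Dgat1/Dgat2, whose sign turned. With median transcript lengths the shCon levels per length were 369.8 (Plin2), 75.9 (Plin3), 60.9 (Pnpla2), 55.2 (Abhd5), 15.1 (Dgat2), 6.74 (Plin4) and 5.56 (Hilpda), as the lengths themselves differ. Dgat1 is left out of these values, so they do not give the full order of the tested members. Lcat, of the sterol list, ranged from -0.66 to 0.13 and Gpam from -0.051 to 0.12 in fits without 1 library. Over all tested genes 8439 passed without shCon 1, and 3565 and 3533 without shCopa 2 and shCopa 3. Depth set what could be said of Plin5, Cidec, Plin1 and G0s2, and of Mgll and Mogat2 at under 3 CPM.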
